A study of Peromyscus californicus with 17 samples.

Results

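The genes described here encode the hypoxia-inducible factors (HIF) and the proteins that control them. They were chosen by name, as 8 genes, of which 7 (Hif1a, Epas1, Arnt, Egln1, Egln3, Vhl and Hif1an) have a row among the 27786 genes of the table, and Egln2 was not analysed here. All 7 reached 1 FPKM (fragments per kilobase of gene, scaled to the depth of the library) in at least 1 animal, as did 14905 genes in all. RNAseq had been performed in lungs of male Peromyscus californicus, a monogamous deer mouse from a genetically diverse stock, aged 12 to 15 months. Bonded animals (B1 to B6) had been paired for about 4 months. Bond-disrupted animals (BD1 to BD6) had been paired as long and were then separated, with lungs taken 7 days later. Virgins (V2 to V6) of similar age were housed 3 to a cage by the study's methods, while its results also name smaller groups. Animals with the same number were siblings, or cousins in the case of V3 and V4, and each library was 1 animal. Whole lung was used, so fewer cells of a type and less RNA per cell cannot be told apart.

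HIF is a transcription factor of an alpha subunit, encoded by Hif1a or Epas1 (HIF-2 alpha), and a beta subunit, encoded by Arnt. When oxygen is present, the prolyl hydroxylases Egln1, Egln2 and Egln3 mark the alpha subunit for the ubiquitin ligase that contains Vhl, which sends it to degradation, and the asparaginyl hydroxylase Hif1an keeps it from binding its coactivators. In the lung, Epas1 is best known from the endothelium and from alveolar type 2 cells. This control acts largely on the protein, which was not measured here. The comparisons ask whether the RNA of these genes differs with bonding history, a question raised by the study's interest in the response to hypoxia.

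The deposited FPKM of these genes cannot be compared between animals as they stand. In each column the reads had been divided by the length of a gene some rows above, 1 row for B1 and 17 rows for V6, so that 17 different genes supplied the lengths for 1 row. Hif1a, whose own length solved from the table was 4474 bases, was divided by 164 bases in V2 and by 18055 bases in BD1. Its deposited values were 798 FPKM in V2 and 6.57 FPKM in BD1, a ratio of 121 between the highest and the lowest animal, whereas its own-length values in these animals were 29.3 and 26.5 FPKM. Epas1 was deposited at 47609 FPKM in BD4, where its reads had been divided by the 102 bases of LOC128116133, and at 918 FPKM with its own 5291 bases. Hif1an, with a length of 15604 bases, ranged from 2.81 FPKM in V6 to 527 FPKM in B4 as deposited, and from 3.29 to 4.38 FPKM over all animals with its own length.

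Own lengths brought the members to the spread of ordinary genes. The SD of log2(FPKM + 1) between animals of a group was 0.68 to 1.98 for the 7 genes as deposited and 0.09 to 0.42 with own lengths. Over all 14905 genes the median SD was 1.28 and 0.20. With own lengths, 5 of the 7 genes varied less than the median gene. On this scale Hif1an was the steadiest, less variable than all but 5.45% of genes, and Egln3 the most variable, above 86.0% of genes. The scale understates the spread of low genes such as Hif1an. In FPKM, its coefficient of variation over all animals was 8.68%, beside 8.72% for Egln1. All values below are own-length FPKM unless stated otherwise.

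**Figure D1:**
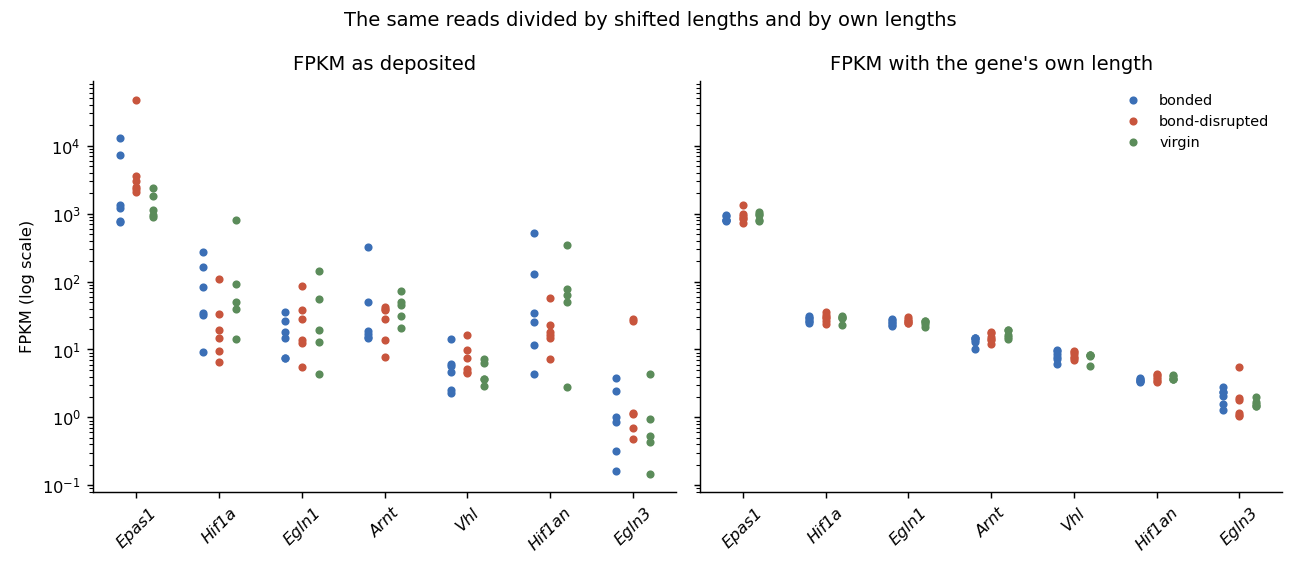
FPKM of the 7 HIF genes on a log scale, as deposited (left) and with each gene's own length (right); each point is 1 animal, coloured by group. Deposited values of Hif1a run from 6.57 to 798 FPKM, and own-length values from 22.7 to 36.2 FPKM.

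Lung RNA held far more Epas1 than any other member. Over the 17 animals the mean own-length level was 908 FPKM for Epas1, 28.6 for Hif1a, 25.6 for Egln1, 15.2 for Arnt, 8.06 for Vhl, 3.73 for Hif1an and 1.95 for Egln3. Epas1 ranked 22nd of all genes, above 99.9% of them, while Egln3 was above 19.8%. The order of neighbours held in all 17 animals from Epas1 to Hif1a, from Egln1 to Arnt, from Arnt to Vhl and from Vhl to Hif1an, with no overlap of ranges. Hif1a was above Egln1 in 13 of 17 animals, with overlapping ranges, and their difference within animals was not tested. Hif1an was above Egln3 in 16 of 17 animals, BD6 being the exception. The order of Vhl and Hif1an rested on their solved lengths, 1293 and 15604 bases, which are the same in every animal. Hif1an had the more reads, with a median of 2568 against 460 for Vhl. The deposited values would have put Vhl above Hif1an in 3 of 17 animals.

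These levels rested on unequal numbers of reads. Library depth was 30788496 to 68231985 reads, as solved from the values. Epas1 had at least 131172 reads in every animal, Hif1a at least 3566, Egln1 2372, Hif1an 1672, Arnt 1583, Vhl 302 and Egln3 118. With a fragment taken as a pair of reads, counting alone gives a coefficient of variation of 13.0% for Egln3 and 8.14% for Vhl. It is at most 3.55% for each of the other members. These hold for the animal with the fewest reads of each gene.

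**Figure D2:**
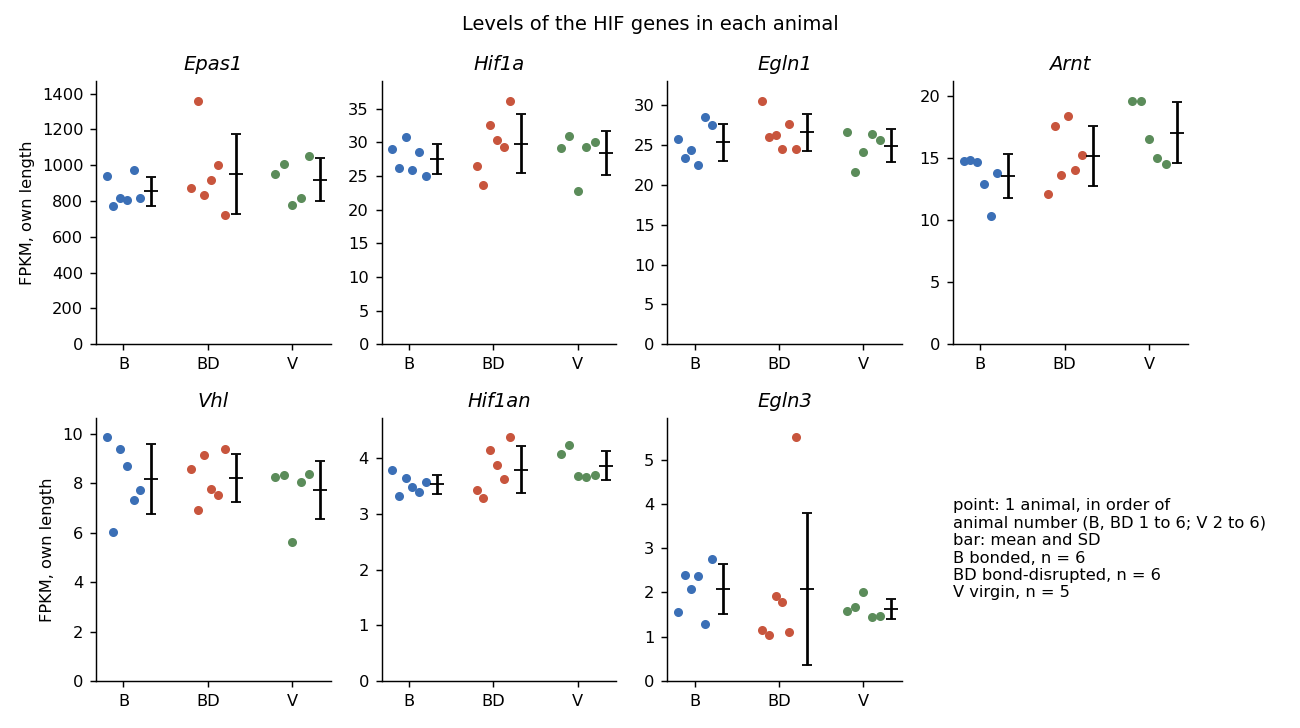
Own-length FPKM of each HIF gene in the 3 groups, with 1 point per animal and the mean with SD beside the points, on axes that start at 0. The groups overlap for every gene, BD6 stands apart for Egln3 at 5.51 FPKM, and V4 is low for Hif1a and Vhl.

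In the comparisons between groups, no member passed the study's threshold, an adjusted p under 0.1 with a fold change of at least 2. With limma, 0 of 7 members passed in each of the 3 comparisons, beside 0 of 14905 genes (0%). At an unadjusted p under 0.05 the same fit held 0 of 7 members and 5.9% of all genes between bond-disrupted and bonded animals, 1 of 7 members and 3.54% of genes between virgin and bonded animals, and 0 of 7 members and 4.21% of genes between virgin and bond-disrupted animals. Voom, the limma method for reads, also passed 0 genes. In simulated data the limma call on FPKM found 22.5% of changes put in at a fold of 2, between bond-disrupted and bonded animals. The 95% intervals of all 21 differences lay within a fold of 2 either way, from 0.612 to 1.48, on the log2(FPKM + 1) scale, which understates the change of low genes such as Egln3. As deposited, where 0.215%, 0.607% and 0.188% of 18602 genes were called in the 3 comparisons in the same order, 0 of 7 members were called as well.

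Hif1a encodes the alpha subunit present in most cells. In bonded animals its lowest, median and highest levels were 24.9, 27.4 and 30.8 FPKM. In bond-disrupted animals they were 23.7, 29.9 and 36.2 FPKM. The virgins V2 to V6 had 29.3, 31.0, 22.7, 29.4 and 30.0 FPKM. BD6 was the highest animal and V4 the lowest, and the groups overlapped. The fold change was 1.07 (95% interval 0.927 to 1.24) for bond-disrupted over bonded animals, 1.03 (0.884 to 1.20) for virgin over bonded and 0.960 (0.825 to 1.12) for virgin over bond-disrupted animals. The limma adjusted p was at least 0.896 in each. Leaving out 1 animal moved the first log2 difference, 0.099, from 0.041 (without BD6) to 0.16 (without BD2). It moved the second, 0.040, from 0.0085 (without V3) to 0.12 (without V4). With the deposited values the same differences were −1.49, 0.33 and 1.81 on the log2 scale.

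Epas1 encodes HIF-2 alpha. Its lowest, median and highest levels were 774, 815 and 972 FPKM in bonded animals and 721, 896 and 1362 FPKM in bond-disrupted animals. Among virgins, V2 to V6 had 949.5, 1004, 779, 815 and 1053 FPKM. Both extremes were bond-disrupted animals, BD2 at the top and BD6 at the bottom. The mean was 853 ± 81.1 FPKM (SD, n = 6) in bonded, 951 ± 221 (n = 6) in bond-disrupted and 920.2 ± 119 (n = 5) in virgin animals. The fold changes were 1.10 (0.911 to 1.32), 1.07 (0.885 to 1.31) and 0.980 (0.807 to 1.19) in the order above. The first rested largely on BD2, since its log2 difference was 0.13 with all animals, 0.024 without bond-disrupted replicate 2 and 0.21 without bond-disrupted replicate 6. BD2 had the lowest summed level of the 17 animals for the measured markers of macrophages (3 of 3 measured, 47.8 FPKM, where Marco alone was the lowest of all animals at 16.1 FPKM), neutrophils (1 of 3, 2.66 FPKM), B cells (3 of 4, 20.3 FPKM), T cells (1 of 3, 3.71 FPKM) and erythroid cells (2 of 4, 0.969 FPKM), and their part in its Epas1 level was not tested. As deposited, the log2 differences were 1.01, −0.67 and −1.68.

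Markers of the endothelium, which expresses Epas1, were measured in the same libraries. The summed level of all 6 (Pecam1, Cdh5, Tek, Kdr, Cldn5 and Vwf) was 696 to 901 FPKM in bonded, 567 to 977 in bond-disrupted and 701 to 1002 in virgin animals. BD6, lowest for Epas1, was also lowest for this sum, and BD2 had the highest sum of the bond-disrupted animals, where it was the highest of all animals for Pecam1 (290.1 FPKM), Tek (177 FPKM) and Vwf (108 FPKM), but low for Cldn5 (71.6 FPKM) and within the bonded range for Cdh5 (172 FPKM) and Kdr (159 FPKM). The summed type 2 alveolar markers, most of which was Sftpc, were highest of all in BD6 at 31638 FPKM and second lowest in BD2 at 14831 FPKM, whereas Sftpb was above every bonded animal both in BD6 (3564 FPKM) and in BD2 (2783 FPKM). None of the 6 endothelial markers passed an unadjusted p of 0.05 in any comparison, beside 5.9%, 3.54% and 4.21% of all genes. The part of either cell type in the spread of Epas1 was not tested.

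The balance of the alpha subunits was taken as the ratio of Epas1 to Hif1a in each animal. It was 26.5, 31.7 and 34.0 in bonded animals (lowest, median and highest) and 19.9, 31.6 and 57.4 in bond-disrupted animals. In the virgins V2 to V6 it was 32.5, 32.4, 34.3, 27.8 and 35.0. The group medians lay close together, and the bond-disrupted group held both the lowest animal, BD6, and the highest, BD2. On the log2 scale the mean ratio of Hif1a to Epas1 was −4.95 ± 0.13 in bonded, −4.98 ± 0.51 in bond-disrupted and −5.01 ± 0.13 in virgin animals. Bond-disrupted and bonded animals differed by −0.03 (two-sided exact permutation test, adjusted p = 0.881 over 3 tests), virgin and bonded animals by −0.06 (exact, adjusted p = 0.881) and virgin and bond-disrupted animals by −0.03 (exact, adjusted p = 0.881). Without BD2 and BD6, a choice made after seeing the data, the first difference was 0.02.

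Arnt encodes the beta subunit, which pairs with either alpha subunit and with other partners. It had 10.3, 14.3 and 14.9 FPKM in bonded animals and 12.1, 14.7 and 18.4 FPKM in bond-disrupted animals. The virgins V2 to V6 had 19.6, 19.6, 16.5, 15.035 and 14.5 FPKM. The virgins V2 to V5 lay above every bonded animal, and V6 lay within the bonded range. The means were 17.1 ± 2.45 FPKM (SD, n = 5) in virgins and 13.6 ± 1.75 (n = 6) in bonded animals, a fold change of 1.24 (1.04 to 1.48). The unadjusted limma p was 0.0189, the only one under 0.05 among the members, in a comparison where 2.06% of all genes had an unadjusted p under 0.05 and were higher in virgins. The adjusted p was 1. Bond-disrupted animals, at 15.2 ± 2.41 FPKM (n = 6), lay between, with fold changes of 1.11 (0.938 to 1.31) over bonded animals and of 1.12 (0.939 to 1.332) for virgins over them.

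A property of the libraries moved with Arnt. Over 7558 genes with a mean of at least 8 FPKM, the slope of a library's deviation on gene length was −0.07 to 0.02 log2 units per doubling of length in bonded, −0.12 to 0.07 in bond-disrupted and −0.08 to 0.13 in virgin animals, and V2 and V3, highest for Arnt, had the steepest slopes in favour of long genes. Over the 17 animals Pearson r of this slope was 0.69 with Arnt, and between −0.29 and 0.52 with the other members, as a description. Row and diagonal effects were also removed by least squares, in place of solved lengths. The log2 difference of Arnt between virgin and bonded animals was then 0.14 rather than 0.31. It was 0.054 rather than 0.15 for bond-disrupted minus bonded, and 0.090 rather than 0.16 for virgin minus bond-disrupted animals. Leaving out 1 animal moved bond-disrupted minus bonded from 0.077 (without B5) to 0.21 (without BD1). The part of the length slope in these differences was not tested.

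**Figure D3:**
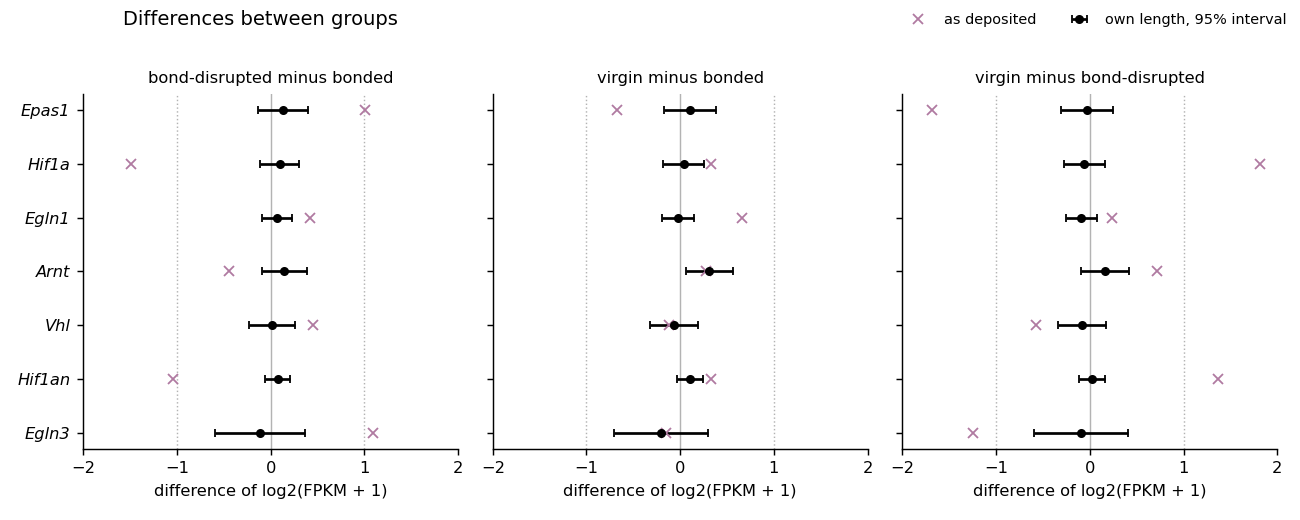
Differences of log2(FPKM + 1) between the groups for each HIF gene; black points with bars are own-length estimates with 95% intervals from limma, crosses are the deposited values, and dotted lines mark a fold of 2. All own-length intervals lie inside the dotted lines, and crosses reach −1.68 and 1.81.

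Egln1 encodes the prolyl hydroxylase best known for setting the level of HIF at normal oxygen. It had 22.5, 25.1 and 28.5 FPKM in bonded animals and 24.5, 26.1 and 30.6 FPKM in bond-disrupted animals. Among virgins, V2 to V6 had 26.6, 21.7, 24.1, 26.4 and 25.6 FPKM. The highest was BD1 and the lowest V3, and the groups overlapped throughout. The fold changes were 1.05 (0.937 to 1.17) for bond-disrupted over bonded animals, 0.984 (0.876 to 1.11) for virgin over bonded and 0.939 (0.836 to 1.06) for virgin over bond-disrupted animals.

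Egln3 encodes the prolyl hydroxylase that is itself a target of HIF in many tissues. It had 1.29, 2.23 and 2.77 FPKM in bonded animals and 1.05, 1.47 and 5.51 FPKM in bond-disrupted animals. The virgins V2 to V6 had 1.58, 1.68, 2.00, 1.45 and 1.46 FPKM. BD6 had 666 reads, while the other bond-disrupted animals had at most 1.93 FPKM, so that the group held both the lowest animal, BD2, and the highest. The mean was 2.08 ± 0.56 FPKM (SD, n = 6) in bonded, 2.09 ± 1.72 (n = 6) in bond-disrupted and 1.64 ± 0.23 (n = 5) in virgin animals. The fold changes were 0.926 (0.665 to 1.29), 0.867 (0.612 to 1.23) and 0.936 (0.661 to 1.32) in the order above, for FPKM + 1. With a pseudocount of 0.1 the log2 differences were −0.21, −0.29 and −0.081, and with voom on reads −0.25, −0.33 and −0.073, against −0.11, −0.21 and −0.096 here, and none passed the threshold. Without bond-disrupted replicate 6 the log2 difference between bond-disrupted and bonded animals was −0.35 instead of −0.11. It was −0.019 without bond-disrupted replicate 2, −0.027 without 5 and −0.033 without 1. Leaving out bonded replicate 6 gave −0.048, replicate 5 gave −0.19 and replicate 1 gave −0.16. The difference between virgin and bond-disrupted animals was 0.15 without bond-disrupted replicate 6, instead of −0.10. It was −0.17 without bond-disrupted replicate 1, −0.19 without 2 and −0.18 without 5. None of these passed the threshold.

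BD6 stood apart in other ways. Its mean Pearson r with the other 16 libraries was 0.949, the lowest, against 0.962 to 0.975 for the rest. Of the 2 skeletal muscle markers, Acta1 was at 21.4 FPKM in BD6 and at most 1.14 in the other animals, whereas Ckm was at 1.06 FPKM in BD6, within the range of 0.566 to 4.77 in the other animals. Their sum was 22.5 FPKM in BD6, where the bond-disrupted median was 2.01, and ran to 5.34 in bonded and 2.77 in virgin animals. The 3 macrophage markers, Marco, Mrc1 and Cd68, summed to 304 FPKM in BD6, against 85.2 to 235 in bonded and 77.1 to 175 in virgin animals, and to 252 in BD3, whose Egln3 level was 1.93 FPKM. BD6 was also the lowest animal for the summed smooth muscle markers (293 FPKM) and fibroblast markers (632 FPKM) and the highest for the type 2 alveolar markers (31638 FPKM). Their part in the level of Egln3 was not tested. With BD2, whose mean r was 0.962, and BD6 both left out, 0 genes were called in any comparison.

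Vhl encodes the part of the ubiquitin ligase that recognises hydroxylated HIF alpha. It had 6.03, 8.22 and 9.87 FPKM in bonded animals and 6.92, 8.18 and 9.40 FPKM in bond-disrupted animals. Among virgins, V2 to V6 had 8.25, 8.34, 5.64, 8.07 and 8.37 FPKM. V4 was the lowest of all animals and the other virgins lay close together. The fold changes were 1.01 (0.854 to 1.20), 0.954 (0.799 to 1.14) and 0.943 (0.791 to 1.13) in the order above, and the sign of each turned when single animals were left out.

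Hif1an encodes the asparaginyl hydroxylase also called factor inhibiting HIF. It had 3.32, 3.53 and 3.79 FPKM in bonded animals and 3.29, 3.75 and 4.38 FPKM in bond-disrupted animals. The virgins V2 to V6 had 4.07, 4.23, 3.69, 3.66 and 3.703 FPKM. BD6 was the highest and BD2 the lowest, and bonded animals spanned the narrowest range. The fold changes were 1.06 (0.962 to 1.16) for bond-disrupted over bonded animals, 1.07 (0.975 to 1.18) for virgin over bonded and 1.02 (0.924 to 1.12) for virgin over bond-disrupted animals. As deposited, the log2 differences were −1.04, 0.33 and 1.37. Least squares, in place of solved lengths, gave 0.19 for bond-disrupted minus bonded animals, against 0.077 with own lengths.

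Members were also compared with each other across the 17 animals, in 21 pairs, with own-length log2(FPKM + 1). Hif1a and Hif1an rose and fell together, with Pearson r = 0.74 (permutation test, p = 0.00082, adjusted p = 0.0172) and Spearman rho = 0.74 (permutation test, p = 0.00119, adjusted p = 0.0125). Pearson r was 0.77 without V4 and BD6, the 2 animals farthest from the median of Hif1a, and 0.77 after group means were removed, but 0.57 without BD2 and BD6. Epas1 and Egln3 ran opposite, with r = −0.71 (permutation test, p = 0.00484, adjusted p = 0.0339) and rho = −0.79 (permutation test, p = 0.00028, adjusted p = 0.00588). Without BD2 and BD6, the farthest for Epas1, r was −0.68.

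Hif1a and Vhl were also related, with r = 0.69 (permutation test, p = 0.00219, adjusted p = 0.023), but rho was 0.60 (permutation test, p = 0.0127, adjusted p = 0.0888) and r was 0.51 without V4 and BD6. For the alpha subunits, Hif1a and Epas1, r was −0.19 (permutation test, p = 0.46, adjusted p = 0.686) and rho = 0.09 (permutation test, p = 0.724, adjusted p = 0.823), and without BD2 and BD6 r was 0.53, so its sign rested on those animals. Of the 21 pairs, 3 had an adjusted p under 0.05 by Pearson r and 2 by Spearman rho. The share of all gene pairs that reach such values in these libraries was not computed. These counts therefore cannot be read as particular to the HIF genes. All genes of a library share its depth and its length slope, which had r = 0.43 with Hif1a and r = 0.52 with Hif1an. The part of these in the correlations was not tested.

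**Figure D4:**
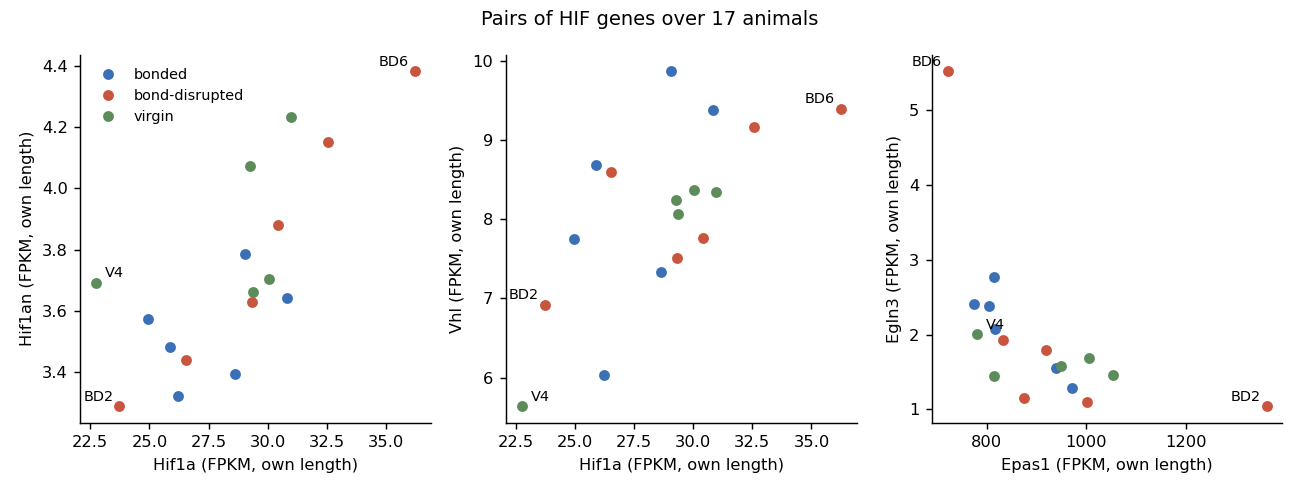
Own-length FPKM of Hif1an and of Vhl against Hif1a, and of Egln3 against Epas1, with 1 point per animal coloured by group; BD2, BD6 and V4 are named. Hif1a and Hif1an rise together (r = 0.74 on the log2 scale), and Egln3 is lowest where Epas1 is highest (r = −0.71).

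For each member, genes with the most similar pattern over the 17 animals were sought among 13325 genes, by Pearson r and as a description. Epas1 was closest to Jcad, a gene of endothelial cell junctions (r = 0.93), and to Ezh1, which encodes a histone methyltransferase (r = 0.92). Without BD2 and BD6 these values were 0.85 and 0.84. Hif1an was closest to Ttc7a (0.92) and to Hspa4 (0.90), which encodes a heat shock protein. Egln3 was closest to Cryz (0.88) and Cd300e (0.85), and without BD2 and BD6 these values were 0.78 and 0.65. Hif1a was closest to Ctps2 (0.86) and Osbpl8 (0.85), with 0.80 and 0.73 without BD2 and BD6. Among the 2 closest genes were Gigyf2 (0.85) for Arnt, Htatsf1 (0.85) and Rhod (0.85) for Egln1, and Nup107 (0.79) and Ildr2 (0.76) for Vhl. These moved less without BD2 and BD6, for example to 0.88 for Gigyf2 and 0.77 for Nup107.

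The rest of the pathway was read from lists. The partners of Vhl in its ligase, Elob, Eloc, Cul2 and Rbx1, were all measured, and 0 of 4 had an unadjusted p under 0.05 in any comparison, beside 5.9%, 3.54% and 4.21% of all genes, shares at which lists of this size would hold few or none. The abundant members were Elob, at 121 ± 7.69, 115 ± 19.7 and 108 ± 16.3 FPKM in bonded, bond-disrupted and virgin animals, and Rbx1, at 42.7 ± 3.22, 40.99 ± 7.57 and 40.3 ± 6.99 FPKM. The median log2 difference of the 4 was −0.07 for bond-disrupted minus bonded, −0.14 for virgin minus bonded and −0.10 for virgin minus bond-disrupted animals, beside medians of 0.01, 0.01 and 0.00 over all genes. In virgins, V2 and V3, which had the steepest length slopes, were lowest for Elob (88.7 and 91.8 FPKM) and for Rbx1 (31.9 and 34.7 FPKM), below every bonded animal, while V4 to V6 had at least 114.5 and 42.5 FPKM. The part of the slope was not tested.

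Of 16 other subunits and modulators, such as the coactivators Ep300 and Crebbp, 15 were tested and 0 had an unadjusted p under 0.05 in any comparison, beside the same 5.9%, 3.54% and 4.21% of all genes. Their median log2 differences were 0.03, 0.00 and −0.00 in the order above. The most abundant were Hsp90ab1, a chaperone that stabilises HIF alpha, at 424 ± 34.1, 423 ± 18.0 and 440.4 ± 53.5 FPKM, and Rack1, which competes with it, at 422 ± 21.2, 432 ± 32.6 and 409 ± 83.8 FPKM. Hif3a was not analysed here, since its length could not be settled.

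Of 14 glycolytic genes that HIF can induce, 10 were tested and 0 had an unadjusted p under 0.05 in any comparison, beside 5.9%, 3.54% and 4.21% of all genes. Their median log2 differences were 0.09, −0.02 and −0.06. Aldoa, which encodes an aldolase, was at 425 ± 37.6, 433 ± 19.4 and 411 ± 17.8 FPKM. Gapdh was at 230 ± 52.6, 235 ± 12.1 and 203 ± 24.0 FPKM, with a log2 difference of −0.21 (SE 0.13) between virgin and bond-disrupted animals. Slc2a1, Slc2a3, Ldha and Pfkl were not analysed here.

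Of 22 other HIF targets, 18 were tested, 3 (Ca9, Ca12 and Epo) stayed under 1 FPKM in every animal, and Vegfa was not analysed here. Their median log2 differences were 0.05, 0.05 and −0.04. In the comparison of bond-disrupted with bonded animals 1 of 18 had an unadjusted p under 0.05, against 5.9% of all genes, in that of virgin with bonded animals 0 of 18, against 3.54%, and in that of virgin with bond-disrupted animals 1 of 18, against 4.21%. None passed the adjusted threshold.

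The gene in the comparison of virgin with bond-disrupted animals was Angptl4, which encodes an inhibitor of lipoprotein lipase, with 1.44, 2.98 and 9.18 FPKM in bond-disrupted animals (lowest, median and highest) and 2.63, 1.82, 1.06, 1.91 and 0.918 FPKM in V2 to V6. Its log2 difference was −0.79 (SE 0.34, limma unadjusted p = 0.0323, adjusted p = 0.947). Bonded animals had 1.89, 2.89 and 4.55 FPKM, and virgin minus bonded animals gave −0.62 (SE 0.34). Bond-disrupted minus bonded animals gave 0.17 (SE 0.32). That difference was −0.016 without BD2 and −0.067 without BD3, omissions picked after seeing the data.

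The most abundant of this list were Cxcr4, a chemokine receptor, at 40.97 ± 9.30, 42.6 ± 11.001 and 39.8 ± 3.89 FPKM, and Ddit4, an inhibitor of mTORC1 signalling. Ddit4 had 13.4, 19.4 and 25.3 FPKM in bonded animals, 17.9, 22.9 and 229 FPKM in bond-disrupted animals, and 17.8, 23.4, 76.3, 14.9 and 16.0 FPKM in V2 to V6. BD2, the animal highest for Epas1, and V4, the animal lowest for Hif1a and Vhl, were the highest for Ddit4 in their groups. The log2 difference between bond-disrupted and bonded animals was 0.74 (SE 0.53, limma adjusted p = 0.875), and 0.19 without BD2, an omission chosen after seeing the data.

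**Figure D5:**
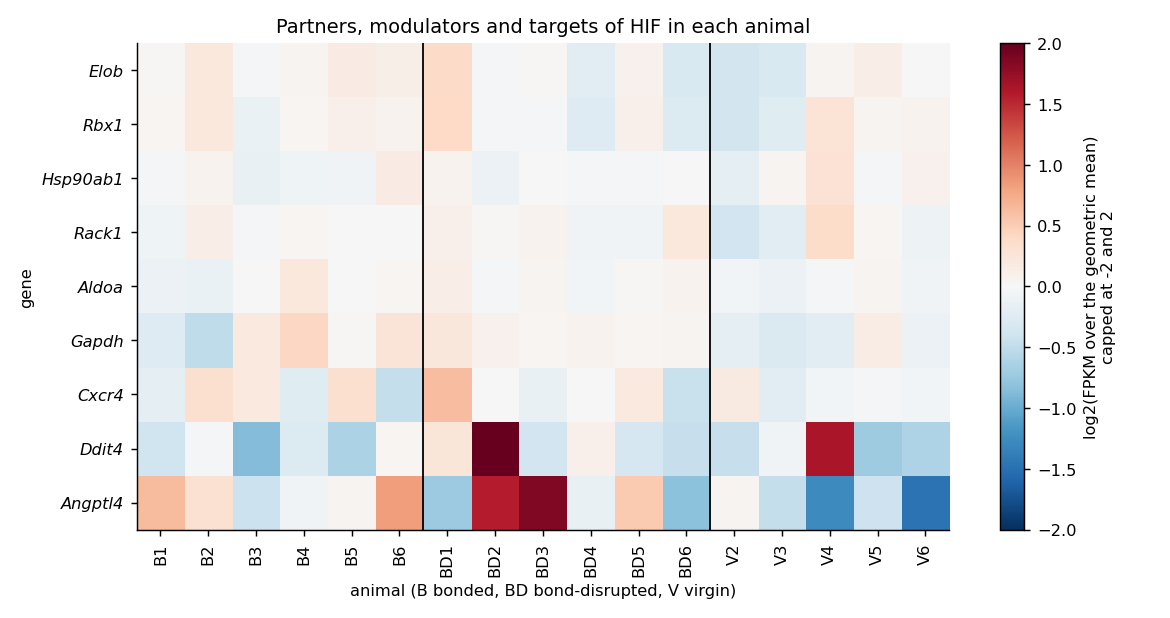
Own-length FPKM of the named ligase partners, modulators and targets of HIF in each animal, as log2 of the ratio to the gene's geometric mean over 17 animals, with colours capped at −2 and 2. Ddit4 is highest in BD2, at 229 FPKM.

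The tissue label was checked on marker genes. Lung epithelium was present in every library: 3 type 2 alveolar markers (Sftpc, Sftpb and Abca3) summed to at least 14580 FPKM, 4 type 1 alveolar markers to at least 1824 FPKM, and the club cell marker Scgb1a1 was at 49032 FPKM or more. Of 42 markers tested from 15 cell type lists, 3 had an unadjusted p under 0.05 between bond-disrupted and bonded animals (5.9% of all genes), 1 between virgin and bonded animals (3.54%) and 0 between virgin and bond-disrupted animals (4.21%). Sftpb, 1 of 3 type 2 markers, was among them in both comparisons with bonded animals and was lower in bonded animals, and 2 of 4 smooth muscle markers, Acta2 and Myh11, were lower in bond-disrupted than in bonded animals at the same p. The 4 smooth muscle markers summed to 494 to 1150 FPKM in bonded, 293 to 976 in bond-disrupted and 494 to 828 in virgin animals. Cardiac markers summed to 33.4 to 353, 59.0 to 219 and 81.5 to 265 FPKM. The part of these cell types in the values above was not tested.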

How the data were processed

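Lung RNA of 17 animals was sequenced from strand-specific libraries, and the authors deposited FPKM, 1 column per animal, with 0 columns of no sample. The submitters' processing notes name FastQC, Trim Galore 0.4.5, STAR 2.7.2, SAMtools 1.5, featureCounts and Subread 1.5.3, and genome build and annotation are not given in the sources used here. Symbols were matched to the RefSeq genes of ASM782708v3. Groups came from the sample labels.

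Depths were solved from small RNA genes of known RefSeq length, as values that turn FPKM into whole reads, and gene lengths were then solved the same way, allowing for the shift of lengths, which grows by 1 row from each column to the next. Of 27787 lengths, 26427 were settled. Of 1535 small RNA lengths, 1487 equalled those of RefSeq, but the depths had been solved from these, so the match is not independent. Of 131827 values of few reads, 98.4% lay within 0.03 of a whole number, against 6.09% with the gene's own length. By chance, 6% would do so for a length set beforehand. Lengths were kept where at least 60% of their values were whole, so the 98.4% follows in part from the search. FPKM was recomputed with each gene's own length for 23834 genes with all values. Other genes were left out.

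Comparisons used limma 3.58.1 in R 4.3.3 on log2(FPKM + 1), with 3 groups in one fit, no trend, two-sided tests and Benjamini-Hochberg adjustment over the genes that reached 1 FPKM in any animal. The call, an adjusted p under 0.1 and a fold of at least 2, follows the study's methods. The ratio of Hif1a to Epas1 was compared by exact permutation, and pairs of members by 100000 permutations. For the pairs, no version that keeps families together is given. Python 3.11.15, numpy 2.4.6, scipy 1.17.1 and pandas 2.3.3 were used. Both steps were tested on simulated data. There, 99.9% of the settled lengths equalled the true length. Changes were put into 200 genes of the bond-disrupted group and compared with bonded animals. The call found 0% of them at a fold of 1.5, 22.5% at 2 and 91.5% at 4. An adjusted p under 0.1 alone held 61.5%, 85.5% and 96%. The call therefore misses most changes near a fold of 2. Members and lists were chosen with earlier results of these data known. Named are all members, from each list the 2 most abundant genes and those with an unadjusted p under 0.05 (at most 6), the 2 genes most alike to each member, and neighbours that supplied a length. Of the genes this rule gives, 2 are not reported here, and counts over lists include them. The correlations between members, the length slope and the omission of BD2 and BD6 together were chosen after seeing the data.

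Animal numbers mark families in the study, so the number was also used as a replicate block. Of 16 same-number pairs, 7 had deviations from group means that correlated above 0.1 (mean r 0.06, lowest −0.34, highest 0.42). These were 5 of 6 pairs of bonded and bond-disrupted animals (mean r 0.22, lowest 0.045), 2 of 5 of bonded and virgin animals (mean r 0.0066) and 0 of 5 of bond-disrupted and virgin animals (mean r −0.069), and the mean r of 80 other pairs was −0.01. P-values measure the spread between these animals only. Other alternatives were the deposited FPKM, least-squares effects, voom on recovered reads with a mean of at least 10, a pseudocount of 0.1, other filters, a trend, only the 2 groups compared, other scalings and leaving out each animal.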

Additional observations from a re-analysis of the deposited data

Results flagged for a closer look

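In 24 groups of member values and ratios, 3 held an animal far from the others by Dixon's criterion, which chance alone flags in about 1 of 20 groups. Egln3 in bond-disrupted animals was 5.51 FPKM in BD6, against 1.05 to 1.93 FPKM in the others. Hif1a in virgins was 22.7 FPKM in V4, against 29.3 to 31.0 FPKM in the others. Vhl in virgins was 5.64 FPKM in V4, against 8.07 to 8.37 FPKM. Among the other named genes, Ddit4 was 229 FPKM in BD2, against 17.9 to 28.9 FPKM in the other bond-disrupted animals, and 76.3 FPKM in V4, against 14.9 to 23.4 FPKM in the other virgins. Gapdh was 259 FPKM in BD1, against 226 to 234 FPKM. In all, 6 of 51 groups held such an animal.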

How the results depend on the processing

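No gene was called with own lengths, and none under the pseudocount, filter, trend, 2-group, quantile, median-ratio, voom and replicate block alternatives. The deposited FPKM called 40, 113 and 35 genes (bond-disrupted minus bonded, virgin minus bonded, virgin minus bond-disrupted), and least squares called 1, 0 and 0, the 1 being LOC128102901, named after its value was seen. Leaving out 1 animal called 0 to 1 genes in the first comparison, 0 to 1 in the second and 0 in the third, the 1 in each being LOC128094431 without bonded replicate 4. No member was called under any alternative, the deposited values included. With the replicate block, the log2 ratio of Hif1a to Epas1 differed by −0.03, −0.08 and −0.04, and the block changed no call.

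Signs of small differences did turn, and the cause was not tested except for the deposited values, which keep the shifted lengths. As deposited, the log2 difference of bond-disrupted minus bonded animals was −1.49 for Hif1a, −0.44 for Arnt, 1.09 for Egln3 and −1.04 for Hif1an. That of virgin minus bonded animals was −0.67 for Epas1 and 0.66 for Egln1, and that of virgin minus bond-disrupted animals 1.81 for Hif1a and 0.24 for Egln1. The ratio of Hif1a to Epas1 was then 1.01 and 3.56 in the last 2 comparisons. Least squares gave −0.0036 for Hif1a in the first comparison, −0.056 for Hif1a and 0.057 for Egln1 in the second and −0.075 for Hif1an in the third. The replicate block gave Egln1 0.00025 in the second, and quantile normalization gave Hif1an −0.0072 in the third. Without BD2 and BD6, Epas1 was 0.015 and Egln3 0.093 in the third and the ratio 0.018 in the first.

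Leaving out 1 animal moved Vhl from −0.058 to 0.068, −0.14 to 0.027 and −0.13 to 0.012 in the 3 comparisons. Egln1 ran from −0.055 to 0.024 in the second. In the third, Hif1a ran from −0.12 to 0.017, Epas1 from −0.10 to 0.080, Egln3 from −0.19 to 0.15 and Hif1an from −0.0051 to 0.060. The ratio ran from −0.16 to 0.14, −0.12 to −0.018 and −0.20 to 0.10. Another scaling moved the median of all genes by at most 0.016. Low reads limit Egln3 and Vhl.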
